A study of Homo sapiens with 24 samples.

Results

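The 10 tubulin mRNAs described here encode 3 alpha-tubulins (TUBA1A, TUBA1B and TUBA1C), 6 beta-tubulins (TUBB, TUBB2A, TUBB2B, TUBB3, TUBB4B and TUBB6) and the gamma-tubulin TUBG1. They were picked by gene name from a deposited table of 19798 genes. Alpha- and beta-tubulin form the dimers that microtubules are built from, and gamma-tubulin is part of the ring complex that starts new microtubules. Their decay was followed in HEK293T, an established line from human embryonic kidney, by SLAM-seq, a metabolic labelling method. Cells were transduced with a lentiviral CRISPR vector and selected in puromycin. In sgCNOT3 cells the vector targeted CNOT3, part of the deadenylase complex CCR4-NOT, and in sgNT cells it carried negative control guides. Each genotype had a pair of guides, and which library received which guide is not in the labels. All cells were given 75 µM 4-thiouridine for 24 h, with new medium every 3 h, and were then chased with 10 mM UTP for 0, 1, 2, 4, 8 or 12 h. There were 2 libraries for each genotype at each chase time, 24 in all. Each value is a conversion, the share of T-to-C changes at the 3' end of a gene's mRNA, and it marks RNA made before the chase.

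Cells adjust the amount of tubulin mRNA to the amount of free tubulin dimer. When dimers are in excess, the factor TTC5 recognises the first amino acids of a new tubulin chain as it leaves the ribosome (methionine, arginine and glutamate, then isoleucine in beta-tubulin or cysteine in alpha-tubulin). TTC5 engages the adaptor SCAPER, which brings the CCR4-NOT deadenylase to the ribosome, and the mRNA being translated is degraded. The comparison of sgCNOT3 with sgNT asked how the decay of tubulin mRNAs differed when CNOT3 was targeted in growing cells. Dimer levels were not changed on purpose in this experiment.

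The first 30 coding bases are shown because they encode the stretch that TTC5 reads. The first 12 bases, in capitals, are the start codon and the next 3 codons. The sequences were read 5′ to 3′ on the coding strand from GRCh38 with GENCODE 44 annotation, and the start of TUBA1A was identical in TUBA1B and TUBA1C.
TUBA1A: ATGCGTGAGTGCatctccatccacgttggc
TUBB: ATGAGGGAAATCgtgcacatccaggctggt
TUBB2A: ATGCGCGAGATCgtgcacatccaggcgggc
TUBB2B: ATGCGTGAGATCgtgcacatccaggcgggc
TUBB3: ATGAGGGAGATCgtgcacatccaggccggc
TUBB4B: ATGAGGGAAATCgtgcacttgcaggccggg
TUBB6: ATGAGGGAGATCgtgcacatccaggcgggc
TUBG1: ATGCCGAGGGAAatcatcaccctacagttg

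All 9 alpha- and beta-tubulin mRNAs begin with the 4-codon start (ATG, an arginine codon, GAA or GAG, then an isoleucine or cysteine codon). That start was found in 19 of 19733 coding sequences (0.0963%), and all of the 19 were tubulin genes. The 9 of them with enough signal to be tested were the 9 alpha- and beta-tubulin mRNAs described here, and no other tested gene had it. The second codon was CGT in the alpha-tubulins and TUBB2B, CGC in TUBB2A and AGG in TUBB, TUBB3, TUBB4B and TUBB6. In TUBG1 an extra CCG codon stood after the ATG, so that its AGG and GAA came 1 codon later and it did not have the 4-codon start. AGG is one of the 3 arginine codons (CGG, CGA and AGG) that the study examined in connection with CNOT3.

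The genes lie on several chromosomes of GRCh38. TUBA1A (chromosome 12, 49184686 to 49189080), TUBA1B (49127782 to 49131397) and TUBA1C (49188736 to 49274600) are neighbours on chromosome 12. TUBB (30717435 to 30725538), TUBB2A (3153497 to 3157544) and TUBB2B (3223324 to 3231730) are on chromosome 6. TUBB3 is on chromosome 16 (89921392 to 89938761), TUBB4B on chromosome 9 (137241287 to 137243707), TUBB6 on chromosome 18 (12307669 to 12344320) and TUBG1 on chromosome 17 (42609641 to 42615238). The canonical transcripts of the alpha- and beta-tubulins have 4 exons each, and that of TUBG1 has 11.

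Within the alpha and within the beta family, coding sequences were 81.8% to 98.2% identical, while the last 250 transcript bases, near which the libraries prime, were 52.4% to 62.0% identical. How reads that match several tubulins were assigned is not given in the sources used here. TUBB3 shares its strand and part of its length with another protein-coding gene model, ENSG00000198211, so their reads may be split or shared. TUBA1A, TUBA1B, TUBA1C, TUBB and TUBB4B overlap genes on the opposite strand, and the library kit keeps strand.

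Over all genes kept for testing, the sgNT libraries had median conversions of 35.9% and 32.0% when the chase began and 5.73% and 5.17% when it ended. The sgCNOT3 medians were 35.9% and 32.7%, then 8.54% and 9.84%, and the replicates at 2 h stood apart, at 29.1% and 18.8%. Read depth is unknown, so no counting error can be given. The targeted gene CNOT3 had conversions of 31.5% and 34.7% at 0 h in sgNT and 62.1% and 81.0% in sgCNOT3. A conversion measures neither editing nor the amount of an mRNA, so it checks neither the knockout nor the identity of the cells. Whether the replicates came from separate cultures is not in the labels, and p-values then measure only how far these libraries spread, which may be technical.

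Conversion of the tubulin mRNAs fell more slowly in sgCNOT3 for 2 of 10, TUBB and TUBB4B, and fell faster for none of them. Among all 10731 genes tested, 21.7% were slower and 0.345% faster, so that the tubulin count of 2 is near the background. With the libraries of replicate 1 or of replicate 2 left out, the slope differences of TUBB (0.047 and 0.053) and TUBB4B (0.13 and 0.13) stayed about as large and no longer passed. With 1 slope per genotype and replicate number, TUBB (adjusted p = 0.23) and TUBB4B (adjusted p = 0.11) did not pass in limma, nor did any other gene. The measure is the difference between the slopes of log2 conversion over the chase, in log2 units per h, and a value above 0 means slower loss in sgCNOT3. Its median was 0.052 over the 10 tubulin mRNAs and 0.058 over all genes. The beta-tubulins ranged from 0.050 (TUBB) to 0.13 (TUBB4B), with a median of 0.070. The alpha-tubulins ranged from -0.016 (TUBA1B) to -0.0071 (TUBA1C), with a median of -0.0099, and no difference between the families was tested. TUBG1 was at 0.036 ± 0.017 (SE, adjusted p = 0.14).

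**Figure D1:**
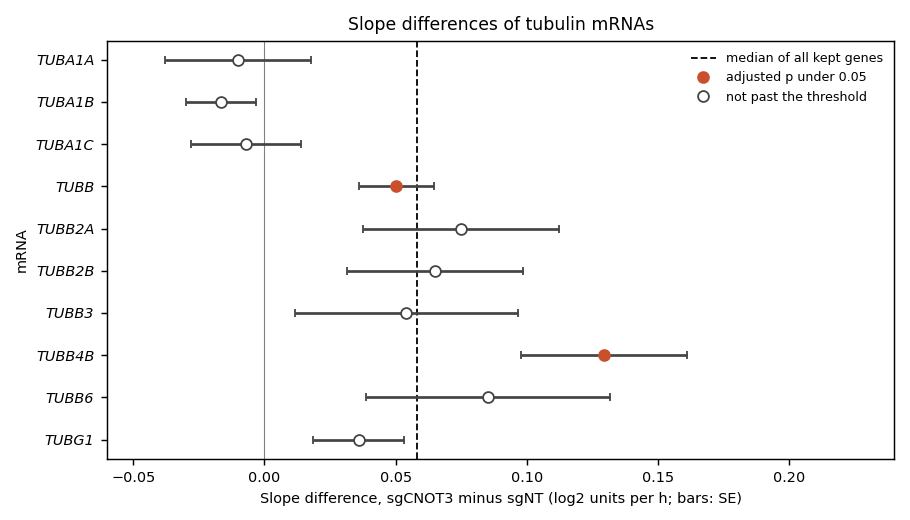
Slope difference of each tubulin mRNA (sgCNOT3 minus sgNT, log2 units per h, bars are SE from limma over 24 libraries). Filled points passed the threshold, and the dashed line is the median of all kept genes (0.058). The 3 alpha-tubulin mRNAs lie just below 0, and the 6 beta-tubulin mRNAs and TUBG1 lie above it.

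The conversion of most genes fell less in sgCNOT3, and the library medians alone gave a slope difference of 0.066 per h. When the median of each library was taken off its values, 0 of the 10 tubulin mRNAs were slower and 2 were faster, against 5.46% slower and 6.09% faster of all genes. The 2 faster were TUBA1B (-0.082 per h, adjusted p = 0.010) and TUBA1C (-0.073, adjusted p = 0.030). TUBA1A was at -0.076 (adjusted p = 0.090). TUBB went to -0.016 (adjusted p = 0.69) and TUBB4B to 0.064 (adjusted p = 0.20). Relative to the library median, TUBA1B and TUBA1C thus lost label more quickly in sgCNOT3, and without centring neither passed the test. The sgNT slope was -0.051 for TUBA1B and -0.052 for TUBA1A, smaller in size than the 0.066 that centring took off. For these mRNAs a centred difference above 0 would have needed label to rise in sgCNOT3 during the chase. Their direction after centring was thus set largely by the centring. For TUBA1C the uncentred slope difference was 0.025 per h without sgCNOT3 replicate 1 of 12 h. The centred fit was not repeated without that library.

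TUBA1A and TUBA1B kept more of their label than most genes in both genotypes, with slopes at percentile 90.6 of tested genes in sgNT and at percentiles 75.9 and 73.8 in sgCNOT3. TUBA1B conversion in sgNT was 32.9% and 28.7% at the start, 31.5% and 28.6% after 1 h, 22.6% and 24.2% after 2 h, 28.4% and 26.1% after 4 h, 21.6% and 21.5% after 8 h, and 20.4% and 18.6% after 12 h. In sgCNOT3 it was 33.9% and 35.9% at the start, 35.0% and 35.5% after 1 h, 26.2% and 31.2% after 2 h, 26.9% and 28.4% after 4 h, 25.1% and 25.9% after 8 h, and 18.7% and 19.3% after 12 h. The sgCNOT3 libraries were above both sgNT libraries at 0, 1, 2 and 8 h and overlapped them at 4 and 12 h. At 12 h, sgNT cells retained 63.2% of the 0 h conversion and sgCNOT3 cells 54.3%. The slope difference was -0.016 ± 0.013 per h (SE, adjusted p = 0.41).

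TUBA1A started lower, at 20.3% and 16.3% in sgNT and 20.7% and 21.2% in sgCNOT3. At 12 h it stood at 11.7% and 10.1% in sgNT and at 9.41% and 13.5% in sgCNOT3, so the genotypes overlapped. Its slope difference was -0.0099 ± 0.028 per h (SE, adjusted p = 0.83), and the replicate libraries of sgNT at 8 h (16.3% and 9.92%) lay far apart. TUBA1C lost label much faster than the other alpha-tubulin mRNAs. It went from 46.7% and 39.2% to 10.0% and 9.67% in sgNT, and from 39.9% and 39.8% to 5.99% and 11.0% in sgCNOT3. The sgCNOT3 libraries at 12 h lay on either side of the sgNT values, and the slope difference was -0.0071 ± 0.021 per h (SE, adjusted p = 0.84). Without the sgCNOT3 library of replicate 1 at 12 h, the slope difference of TUBA1C was 0.025 and that of TUBA1A 0.0090 per h, neither past the threshold.

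**Figure D2:**
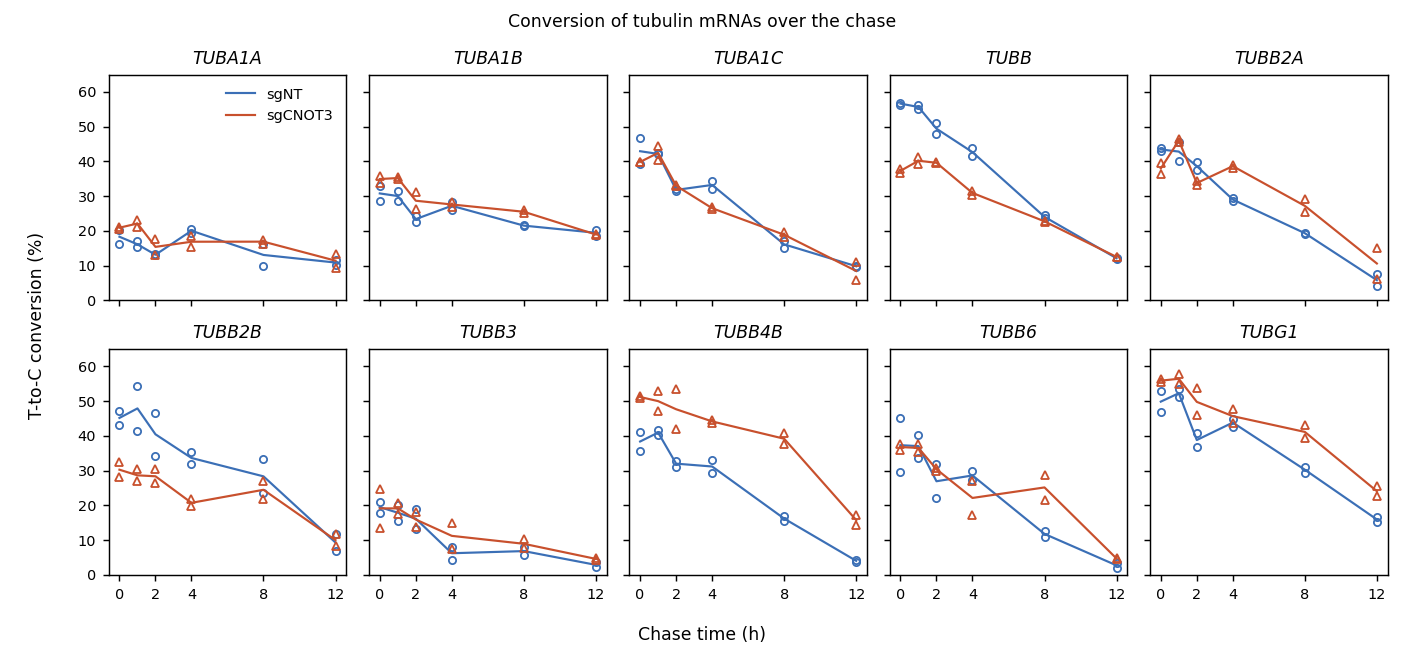
Conversion (%) of each tubulin mRNA against chase time (h). Open circles are single sgNT libraries, open triangles single sgCNOT3 libraries, and lines join the means of 2 libraries. TUBB starts near 56% in sgNT and 37% in sgCNOT3 and ends near 12% in both, whereas the sgCNOT3 libraries lie above the sgNT libraries at every time for TUBB4B and end at 14.3% and 17.3% against 4.37% and 3.76%.

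TUBB4B, a beta-tubulin made in many tissues, had the largest slope difference among the 10. In sgNT its conversion was 41.0% and 35.7% at the start, 41.7% and 40.2% after 1 h, 32.9% and 31.2% after 2 h, 33.0% and 29.4% after 4 h, 15.6% and 16.8% after 8 h, and 4.37% and 3.76% after 12 h. In sgCNOT3 it was 51.4% and 51.0% at the start, 47.1% and 52.9% after 1 h, 41.9% and 53.5% after 2 h, 43.6% and 44.7% after 4 h, 37.7% and 40.7% after 8 h, and 14.3% and 17.3% after 12 h. Both sgCNOT3 libraries were above both sgNT libraries at all 6 chase times. The slope difference was 0.13 ± 0.031 per h (SE, adjusted p = 0.0049). At 12 h, sgNT cells retained 10.6% of the 0 h conversion and sgCNOT3 cells 30.8%.

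TUBB, a widely expressed beta-tubulin, passed the slope test in another way. In sgNT its conversion was 56.4% and 56.9% at the start, 56.3% and 55.0% after 1 h, 47.8% and 51.0% after 2 h, 43.9% and 41.4% after 4 h, 23.6% and 24.5% after 8 h, and 12.0% and 12.3% after 12 h. In sgCNOT3 it was 36.7% and 37.9% at the start, 39.2% and 41.1% after 1 h, 39.8% and 39.5% after 2 h, 31.4% and 30.4% after 4 h, 22.7% and 22.8% after 8 h, and 12.5% and 12.5% after 12 h. The sgCNOT3 libraries were below both sgNT libraries from 0 to 8 h, and at 12 h they were above them by less than 1 percentage point. The slope difference was 0.050 ± 0.014 per h (SE, adjusted p = 0.014), so it went with a lower start and not with a higher end. Without either sgNT library at 12 h it lost the call (0.042 and 0.044 per h, adjusted p = 0.058 and 0.055).

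The other beta-tubulin mRNAs had slope differences above 0 that did not pass the test. TUBB2A had 0.075 ± 0.037 per h (SE, adjusted p = 0.16). Its conversion in sgNT went from 43.0% and 43.9% to 7.51% and 4.18%, and in sgCNOT3 from 36.4% and 39.5% to 6.07% and 15.2%. The sgCNOT3 libraries at 12 h disagreed, and without replicate 1 at that time the slope difference was 0.13 (adjusted p = 0.0032). TUBB2B has the coding sequence most like that of TUBB2A (98.2% identical), but their last 250 transcript bases were 59.2% identical. TUBB2B went from 47.2% and 43.2% to 6.79% and 11.9% in sgNT and from 28.2% and 32.4% to 8.30% and 11.7% in sgCNOT3. Its sgCNOT3 values at 0 h lay below both sgNT values and those at 12 h overlapped them, and the slope difference was 0.065 ± 0.034 per h (SE, adjusted p = 0.17).

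TUBB3, a beta-tubulin best known from neurons, had the lowest mean conversion of the beta-tubulin mRNAs at 0 h in both genotypes. It went from 21.1% and 17.9% to 3.62% and 2.18% in sgNT and from 24.8% and 13.5% to 5.01% and 4.23% in sgCNOT3. The sgCNOT3 libraries were above the sgNT libraries at 12 h only narrowly, and the slope difference was 0.054 ± 0.042 per h (SE, adjusted p = 0.39). TUBB6 went from 45.1% and 29.5% to 3.56% and 1.95% in sgNT and from 36.0% and 37.6% to 4.58% and 4.89% in sgCNOT3. Its sgNT values at 0 h spanned those of sgCNOT3, and the slope difference was 0.085 ± 0.046 per h (SE, adjusted p = 0.20).

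TUBG1 encodes the main gamma-tubulin of dividing cells, and its conversion at 0 h in sgCNOT3 was at percentile 87.9 of tested genes. In sgNT it was 52.9% and 46.8% at the start, 53.4% and 51.1% after 1 h, 36.7% and 40.9% after 2 h, 42.7% and 45.0% after 4 h, 29.4% and 31.2% after 8 h, and 15.4% and 16.6% after 12 h. In sgCNOT3 it was 55.5% and 56.3% at the start, 57.8% and 55.0% after 1 h, 45.9% and 53.7% after 2 h, 43.6% and 47.8% after 4 h, 43.0% and 39.3% after 8 h, and 22.6% and 25.6% after 12 h. The sgCNOT3 libraries were above both sgNT libraries at every time except 4 h.

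At the start of the chase, 1 tubulin mRNA was lower in sgCNOT3 and none was higher, against 4.09% lower and 0.811% higher of all genes. It was TUBB, with a log2 difference of -0.60 ± 0.056 (SE, adjusted p = 5.0e-05), which missed the threshold after centring (-0.61, adjusted p = 0.12). After centring none of the 10 was higher or lower at 0 h, against 0.028% and 0.932% of all genes. TUBB2B had a difference of like size (-0.57 ± 0.26, adjusted p = 0.32) with a wider error, and TUBB4B one in the other direction (0.42 ± 0.13, adjusted p = 0.085). The libraries of the genotypes did not overlap for 4 tubulin mRNAs that were higher and 3 that were lower in sgCNOT3, against 29.1% and 25.9% of all genes.

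During the chase TUBB stayed lower in sgCNOT3, with log2 differences of -0.47 at 1 h (adjusted p = 5.0e-04), -0.32 at 2 h (adjusted p = 0.0060) and -0.46 at 4 h (adjusted p = 2.6e-04). It was the 1 tubulin mRNA called lower at each of these times, where 2.45%, 2.48% and 5.34% of all genes were lower. TUBB4B was higher at 2 h (0.56, adjusted p = 0.024), 4 h (0.50, adjusted p = 0.028) and 8 h (1.26, adjusted p = 3.2e-05). TUBG1 was higher at 2 h (0.35, adjusted p = 0.044) and 8 h (0.44, adjusted p = 0.0045), and TUBB6 at 8 h (1.06, adjusted p = 0.017). The counts higher in sgCNOT3 were 0 at 1 h, 2 at 2 h, 1 at 4 h and 3 at 8 h, against 0.923%, 1.55%, 2.14% and 18.9% of all genes. At 8 h none of the 10 was lower, against 1.98% of all genes. With library medians taken off, none of the 10 was higher or lower at 1, 2 or 4 h, against 0%, 0.0839% and 0.746% of all genes higher and 0.345%, 0.345% and 0.652% lower. The adjusted p of TUBB was then 0.30, 0.56 and 0.51 at these times, that of TUBB4B 0.40 at 2 h and 0.12 at 4 h, and that of TUBG1 0.65 at 2 h. Both sgCNOT3 libraries were above both sgNT libraries at 8 h for 7 of the 10 and below for 1, against 51.8% and 9.01% of all genes. With library medians taken off at 8 h, none was higher and 1, TUBB, was lower (-0.60, adjusted p = 0.040), against 3.91% and 5.34% of all genes.

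At 12 h, 3 of 10 tubulin mRNAs were higher in sgCNOT3 and none was lower, against 31.8% and 2.73% of all genes. TUBB4B had a log2 difference of 1.87 ± 0.13 (SE, adjusted p = 4.5e-07), TUBG1 one of 0.58 ± 0.091 (adjusted p = 3.0e-04) and TUBB6 one of 0.76 ± 0.28 (adjusted p = 0.0498), which missed the threshold in 21 of 31 alternatives. TUBB, at 0.043 ± 0.056 (SE, adjusted p = 0.59), and TUBA1B, at -0.035 ± 0.10 (adjusted p = 0.81), had narrow errors. TUBB2A, at 0.74 ± 0.30 (SE, adjusted p = 0.068), passed without sgCNOT3 replicate 1 of 12 h (1.38, adjusted p = 6.6e-04) and without sgNT replicate 1 of 12 h (1.14, adjusted p = 0.017). Both sgCNOT3 libraries were above both sgNT libraries for 5 of the 10 and below for 0, against 51.9% and 8.28% of all genes.

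Because library medians rose by 0.72 log2 units in sgCNOT3 at 12 h, the same values were also taken relative to the median. TUBB4B was then still higher (1.15, adjusted p = 0.0027), where 10.1% of all genes were higher. TUBA1B (-0.75, adjusted p = 0.021), TUBA1C (-0.98, adjusted p = 0.0061) and TUBB (-0.67, adjusted p = 0.011) were lower, where 14.6% of all genes were lower. Before centring TUBA1B was at -0.035 and TUBB at 0.043, so their lower values came almost wholly from the shift of the medians. For TUBA1C the value rested on which sgCNOT3 library was used. Before centring its difference was -0.27 (adjusted p = 0.29), 0.15 without replicate 1 (adjusted p = 0.34) and -0.69 without replicate 2 (adjusted p = 0.0015). TUBG1 was at -0.13 (adjusted p = 0.67) and TUBB6 at 0.047 (adjusted p = 0.93).

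The difference at 12 h was larger than that at 0 h for TUBB4B, TUBB and TUBG1, 3 of 10, and smaller for none, against 17.4% larger and 0.615% smaller of all genes. This change over the chase was 1.45 ± 0.18 log2 units for TUBB4B (SE, adjusted p = 9.9e-05), 0.64 ± 0.080 for TUBB (adjusted p = 1.1e-04) and 0.42 ± 0.13 for TUBG1 (adjusted p = 0.038).

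**Figure D3:**
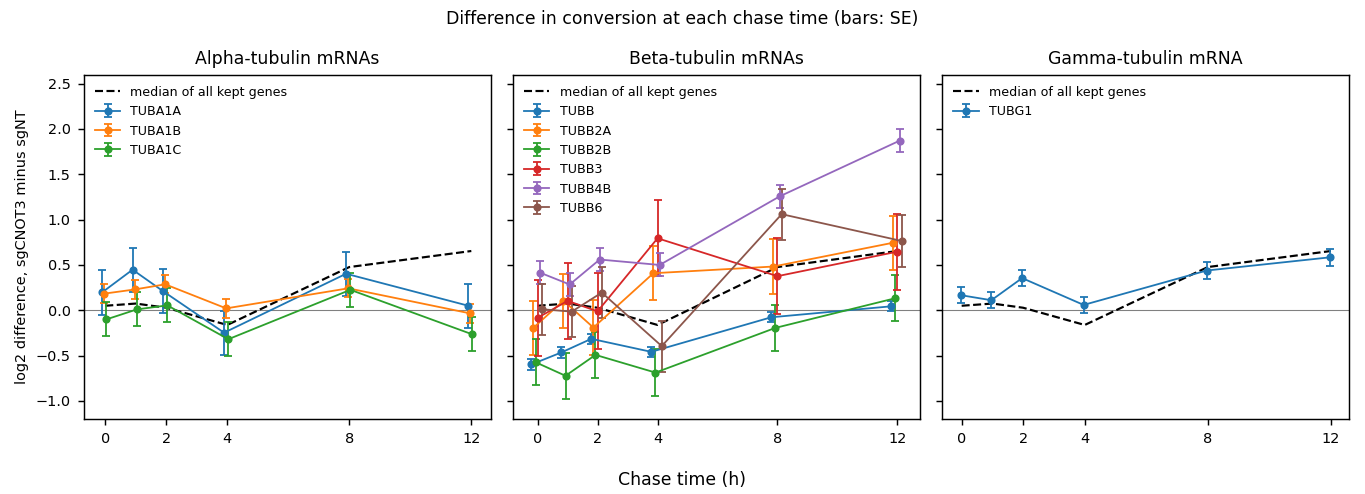
Log2 difference in conversion (sgCNOT3 minus sgNT) at each chase time (h), for alpha-, beta- and gamma-tubulin mRNAs, with SE bars from limma over 24 libraries and the median of all kept genes as a dashed line. TUBB4B ends 1.87 above 0, TUBB starts at -0.60 and reaches 0.043, and the alpha-tubulin mRNAs end near or below 0, under the median line.

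Half-lives were fitted as a single exponential and were not tested. In sgNT they ran from 3.99 h (TUBB3) through TUBB6 (4.85 h), TUBB2A (5.58 h), TUBB4B (5.60 h), TUBA1C (6.04 h), TUBB (6.21 h), TUBB2B (7.29 h) and TUBG1 (8.82 h) to TUBA1B (18.6 h) and TUBA1A (20.7 h). The fits of single replicates overlapped between TUBB6 and TUBB2A, TUBB2A and TUBB4B, TUBB and TUBB2B, TUBB2B and TUBG1, and TUBA1B and TUBA1A. They did not overlap between TUBG1 and TUBA1B, so TUBA1A and TUBA1B formed the long-lived end. Over all 7883 genes with usable fits the sgNT median was 5.63 h and the sgCNOT3 median 7.46 h.

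In sgCNOT3 the order ran from TUBA1C (6.04 h), TUBB3 (6.04 h) and TUBB6 (6.76 h) through TUBB (8.47 h), TUBB2A (9.07 h), TUBB4B (10.3 h), TUBB2B (10.7 h) and TUBG1 (11.7 h) to TUBA1B (14.6 h) and TUBA1A (16.4 h). Replicate fits of neighbours did not overlap between TUBB6 and TUBB, between TUBB2A and TUBB4B, and between TUBG1 and TUBA1B. In both genotypes several curves were not a steady exponential loss. Of the 0 h conversion in sgCNOT3, TUBB6 kept 68.4% at 8 h and 12.9% at 12 h, and TUBB2B 80.9% and 33.1%. TUBB4B kept 76.5% and 30.8%, and TUBB2A 71.7% and 28.0%. The sgNT values were 31.6% and 7.38% for TUBB6, 62.8% and 20.6% for TUBB2B, 42.2% and 10.6% for TUBB4B, and 44.6% and 13.5% for TUBB2A. The hours of these mRNAs in either genotype, and so their order, rest much on the 12 h values. From 2 h to 4 h in sgNT, TUBA1A rose from 71.7% to 109% and TUBA1B from 76.0% to 88.5%. In sgCNOT3, TUBA1C (47.4% and 21.3%) and TUBB3 (46.8% and 24.1%) fell more evenly. The half-life was longer in sgCNOT3 for the 6 beta-tubulin mRNAs and TUBG1, 7 of 10, against 63.0% of all genes, and the median log2 ratio was 0.46 against 0.22.

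The log2 ratio of half-lives was 0.88 for TUBB4B (0.88 in replicate 1 and 0.87 in replicate 2) and 0.70 for TUBB2A (0.58 and 0.83). Their order is not settled, since TUBB2A reached 1.07 without sgCNOT3 replicate 1 of 12 h and exceeded TUBB4B with a curve through the 0 h mean (0.97 against 0.83) and over 0 to 4 h (1.77 against 0.77). The ratio for TUBB was 0.45 (0.49 and 0.41), for TUBB6 0.48 (0.71 and 0.22), for TUBB3 0.60 (0.24 and 1.01) and for TUBG1 0.41 (0.55 and 0.27). For TUBB2B it was 0.55, from 1.07 in replicate 1 and -0.071 in replicate 2, so the replicates disagreed in direction. The fitted half-lives of TUBA1A and TUBA1B were longer than the 12 h chase, so they are extrapolated. TUBA1B had a shorter fitted half-life in sgCNOT3 in both replicates (-0.36, from -0.24 and -0.47). Its ratio was -0.096 over 0 to 8 h and -0.74 over 0 to 4 h. TUBA1A had -0.34, from -0.80 and 0.18, where 1 sgNT fit was at the 24 h limit, and TUBA1C had -0.0011. Over 0 to 4 h the ratios of TUBB2B (-0.13), TUBB6 (-0.61) and TUBG1 (-0.24) turned below 0. Without sgCNOT3 replicate 1 of 12 h that of TUBA1A was 0.041.

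**Figure D4:**
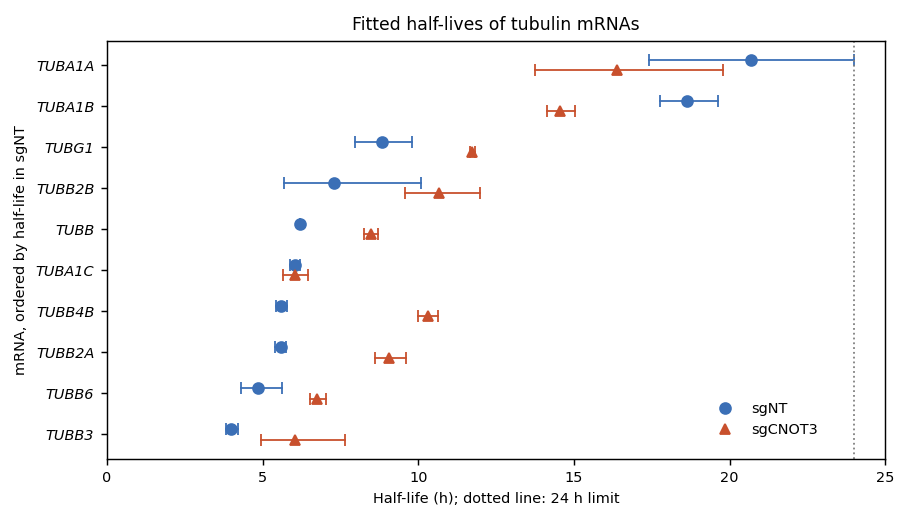
Fitted half-life (h) of each tubulin mRNA, in the order of sgNT. Circles (sgNT) and triangles (sgCNOT3) are fits to all libraries of a genotype, ticks joined by a line are the fits to each replicate number, and the dotted line is the 24 h limit. Fits to all libraries are longer in sgCNOT3 for the beta-tubulins and TUBG1 and not for the alpha-tubulins, and longer for 63.0% of all genes. The replicate fits of TUBB2B, TUBA1A and TUBA1C disagree in direction.

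The arginine codons of these mRNAs were counted, because the study asked about CGG, CGA and AGG. Alpha-tubulin coding sequences hold 21 arginine codons each, of which 3 or 4 are CGG, CGA or AGG. Their share of all codons was 0.67% in TUBA1B and TUBA1C and 0.89% in TUBA1A, and the median over 10698 tested genes with a coding sequence was 2.85%. The beta-tubulins hold 22 arginine codons, and the share ran from 1.58% (TUBB, 7 codons) to 2.47% (TUBB4B, 11 codons). TUBG1 had 20 such codons of 29 for arginine (4.43%), at percentile 84.4 of tested genes, while the alpha-tubulins were at percentiles 1.77 to 3.22. CGC, AGA and CGU, which also encode arginine, made up 3.77% to 4.01% of the alpha-tubulin codons, 2.47% to 3.38% of beta-tubulin codons and 2.00% of TUBG1 codons, against a median of 2.64%. Among the beta-tubulins TUBB4B had the largest share of CGG, CGA and AGG, at percentile 38.4 of tested genes, and also the largest slope difference. TUBG1 had a higher share than any of them and a smaller slope difference than all 6. Whether codon share and slope difference are related was not tested.

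The other genes of the pathway are given by lists. Of the 5 autoregulation factors tested, none was slower or faster, against 21.7% and 0.345% of all genes, and their median slope difference was 0.044. TTC5, which reads the nascent tubulin chain, went from 59.1% and 54.4% to 7.92% and 2.88% in sgNT and from 60.0% and 28.4% to 4.56% and 8.75% in sgCNOT3 (slope difference 0.044 ± 0.046 per h, adjusted p = 0.53). The adaptor SCAPER had 0.038 ± 0.061 (adjusted p = 0.70). Of the CCR4-NOT subunits on the list, CNOT11 had 0.059 ± 0.023 (adjusted p = 0.068), CNOT10 0.049 ± 0.029 (adjusted p = 0.23) and the scaffold CNOT1 -0.011 ± 0.022 (adjusted p = 0.76). After centring 1 of the 5, CNOT1, was faster (-0.077, adjusted p = 0.027) and none was slower, against 6.09% and 5.46% of all genes.

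Of 12 other tubulin genes listed, 3 had enough signal to be tested and 1 was slower. This was TUBD1, the delta-tubulin of centrioles and basal bodies, with 0.11 ± 0.026 per h (SE, adjusted p = 0.0033). It went from 33.4% and 30.4% to 6.47% and 5.56% in sgNT and from 26.4% and 25.2% to 11.7% and 13.9% in sgCNOT3, without overlap at either time. TUBE1 and TUBG2 did not pass. Of 9 entries tested for tubulin folding and dimer assembly (TBCE is listed under 2 identifiers), 1 was slower, PDCL3, a chaperone of the phosducin family (0.069 ± 0.022, adjusted p = 0.030). None of 9 gamma-tubulin ring complex genes and none of 12 tubulin modification genes passed in either direction, and the median slope differences of these lists were 0.037 and 0.036. These counts stand against 21.7% slower and 0.345% faster of all genes. After centring no gene of these 4 lists was slower or faster, against 5.46% and 6.09%.

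The median profile of the 9 alpha- and beta-tubulin mRNAs over the 12 group means was matched most closely by PAFAH1B2 (mean absolute difference 0.087 log2 units), MCMBP (0.10) and NAMPT (0.11). TUBA1C was the member nearest to that profile (0.13, with 17 tested genes closer), and TUBB3 the farthest (1.23, with 8857 closer).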

How the data were processed

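The table that the authors deposited gives T-to-C conversion as a fraction between 0 and 1, without read counts, for 24 libraries in 12 groups of 2, grouped here by the sample titles. Per the labels, RNA was treated with iodoacetamide and 3' end libraries were made with a QuantSeq FWD kit. The build was GRCh38, and bcl2fastq is named in the submitters' processing notes. Which aligner, conversion caller and annotation were used is not given in the sources used here. The same holds for whether reads or T positions were counted. Depth and counting error are therefore unknown.

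A gene was kept (10731 genes, the 10 tubulin mRNAs among them) if its conversion exceeded 0 in each of the 4 libraries of 0 h and in 20 or more of all 24. Slopes were compared with limma 3.58.1 (trend on, R 4.3.3) on log2(conversion + 0.34 percentage points, 1% of the 0 h median), with genotype, chase time and their interaction. Differences on this scale understate changes near 0. Tests were two-sided, with Benjamini-Hochberg adjustment over all kept genes and a threshold of 0.05. Differences at each time came from a limma fit of 12 group means, so each sentence giving an adjusted p refers to limma. Half-lives were fitted to conversions divided by the 0 h mean, with a free amplitude, limited to 24 h, and a fit was dropped if its residual standard error exceeded 0.3. Percentages left at 12 h are relative to the 0 h mean. Coding sequences came from GENCODE 44, which held all 19798 identifiers and gave 19733 coding sequences. The fits were tested on simulated data.

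Named genes were all 10 members, all autoregulation factors, the genes of each other list past the threshold (if 6 or fewer) and the 3 genes nearest the median profile. The members and lists were chosen with earlier results of these data known. Alternatives were the pseudocount, the filter, centring libraries on their median, shorter chases, a replicate block, the trend option, 1 slope per replicate number and leaving out libraries. A curve through the 0 h mean was added after seeing the data.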

Additional observations from a re-analysis of the deposited data

Results flagged for a closer look

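The genotype difference at 12 h was set against that at 0 h, which tests whether it changed over the chase. It changed for 3 of the 10 tubulin mRNAs, all upward, against 17.4% higher and 0.615% lower of all genes in limma. TUBB4B moved by 1.45 log2 units (adjusted p = 9.9e-05), from 0.42 at 0 h, which missed the threshold, to 1.87 at 12 h. TUBB moved by 0.64 (adjusted p = 1.1e-04), from a lower start to an end within the error. TUBG1 moved by 0.42 (adjusted p = 0.038), from 0.17 at 0 h, which missed the threshold, to 0.58 at 12 h. After centring, none of these 3 changes passed the threshold (0.75, -0.060 and -0.28).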

How the results depend on the processing

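Centring each library on its median moved the most values. It left 586 genes slower, 654 faster, 3 higher and 100 lower at 0 h, and 1084 higher and 1565 lower at 12 h, with 0 tubulin mRNAs slower and 2 faster. Slope differences then turned to -0.016 (TUBB), -0.00057 (TUBB2B), -0.012 (TUBB3), -0.030 (TUBG1), -0.022 (TTC5), -0.028 (SCAPER), -0.0068 (CNOT11) and -0.016 (CNOT10), as did the 0 h difference of TUBB6 (-0.0048) and the 12 h differences of TUBA1A (-0.67), TUBB (-0.67), TUBB2B (-0.58), TUBB3 (-0.071) and TUBG1 (-0.13). From 0 to 8 h, 1244 genes were slower and 24 faster, and TUBA1A (0.0018), TUBA1C (0.026), SCAPER (-0.025) and CNOT1 (0.017) changed sign, while TUBB2A passed (0.084). From 0 to 4 h, 91 genes and 0 tubulin mRNAs were slower, and TUBB2B (-0.014), TUBB6 (-0.097), TUBG1 (-0.018), TTC5 (-0.11) and SCAPER (-0.13) changed sign. A pseudocount of 10% of the 0 h median gave 20 genes faster, 132 higher at 0 h and 2145 higher at 12 h. Keeping genes above 0 in all 24 libraries gave 137 higher at 0 h.

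With 1 slope per genotype and replicate number, limma called 0 genes slower and 0 faster, and 0 tubulin mRNAs, with 2686 genes and 1 tubulin mRNA at an unadjusted p under 0.05. Slope differences are the same in that fit, and the calls of TUBB (adjusted p = 0.23) and TUBB4B (adjusted p = 0.11) were lost. Since no gene passed, that fit does not set these mRNAs apart from other genes. Leaving out libraries gave 426 to 2545 genes slower, 1 to 49 faster and 0 to 3 tubulin mRNAs slower. It gave 15 to 97 genes higher and 136 to 482 lower at 0 h, and 2152 to 3558 higher and 181 to 378 lower at 12 h. Without replicate 1 or replicate 2, which removes 12 libraries, the slope differences of TUBB (0.047 and 0.053) and TUBB4B (0.13 and 0.13) were of like size and missed the threshold. Slope differences spanned -0.033 to 0.013 for TUBA1A, -0.035 to 0.025 for TUBA1C, -0.029 to 0.12 for TTC5, -0.089 to 0.16 for SCAPER and -0.018 to 0.0032 for CNOT1. The 0 h differences spanned -0.23 to 0.023 for TUBA1C, -0.51 to 0.34 for TUBB3 and -0.29 to 0.31 for TUBB6. The 12 h differences spanned -0.20 to 0.30 for TUBA1A, -0.10 to 0.031 for TUBA1B, -0.69 to 0.15 for TUBA1C and -0.26 to 0.52 for TUBB2B. TUBA1C was gained as a 12 h call without sgCNOT3 replicate 2 of 12 h, and TUBB2A (0.11 to 1.38) without replicate 1 of 12 h in either genotype. A lone library was assumed to vary like the other groups. The cause of these changes was not tested.

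Same-numbered libraries of the genotypes did not deviate together at the same chase time (correlations across genes of -0.038 to 0.021 at the 6 times). The values thus gave no sign that the numbers pair the genotypes within a time. Libraries of one culture or day need not deviate together, so this cannot tell whether they were paired, and the labels do not say. Over all 66 pairs of groups, whatever the time or genotype, the correlations ran from -0.055 to 0.22. Whether the numbers link libraries of the same genotype across chase times was not tested, and the slope tests treated all libraries as separate. With the replicate block 2325 genes and 2 tubulin mRNAs were slower, and TUBB (adjusted p = 0.017) and TUBB4B (adjusted p = 0.0063) passed in limma. With libraries divided by their median, half-life ratios could be had for TUBA1C and TUBB only, both 0 because both fits reached the limit. The curve through the 0 h mean was chosen after seeing the data and turned TUBA1C (0.084). From 0 to 8 h the half-life ratio of TUBA1C also turned (0.068), and those of TUBB4B (1.51) and TUBB2A (1.21) were larger. From 0 to 4 h TUBB2B (-0.13), TUBB6 (-0.61) and TUBG1 (-0.24) turned. Leaving out libraries, the ratio turned for TUBA1A (up to 0.18), TUBA1C (up to 0.12) and TUBB2B (down to -0.071). Unknown read depth limits every value.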
